A study of Rattus norvegicus with 16 samples.

Results

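The 100 genes with the most abundant messenger RNA in rat testicular germ cells (GCs) were described library by library. They were chosen by level: the 100 gene identifiers with the highest mean CPM (counts per 1000000, a gene's count scaled to the total of its library) over 8 mRNA libraries. They made up 0.377% of the 26560 genes counted and 0.514% of the 19446 genes that had a mean count of at least 1 and were tested. The ranking was to leave out mitochondrial genes, so that transcripts of the nuclear genome remained. The tables listed 0 mitochondrial genes and none had to be dropped.

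The GCs came from male Sprague-Dawley rats that carry an eGFP transgene on in GCs and were fed from weaning until 19 weeks of age. They received a high fat diet (HFD, 40% of calories from fat) or a control diet (CD, 10%), shares taken from the sample labels, and the study's text states another share for the HFD. There were 4 libraries per diet, and the diets were compared to ask whether an HFD changes the RNA of GCs. The eGFP gate that sorted the cells takes GCs of all stages together, so a library with fewer cells of a stage and one with less RNA per cell cannot be told apart. The labelled cell type was not checked against marker genes, because the files do not pair their identifiers with gene names and 0 of the identifiers were found in the reference gene table. For the same reason genes are given by identifier and rank, ranks 1 to 100 running from the highest mean CPM downwards, and no sequence is shown.

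In the testis, spermatogonia divide, spermatocytes pass through meiosis, and haploid spermatids reshape into sperm. Spermatocytes and spermatids make large amounts of a limited set of messenger RNAs, among them those for the small basic proteins that replace histones, for sperm tail and acrosome proteins and for GC forms of metabolic enzymes. Many of these are stored and translated later. The X chromosome is silenced during male meiosis, and a number of GC genes are intronless copies of genes from elsewhere in the genome. Which of the 100 genes belong to these classes is not known here.

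The libraries held between 38633043 and 62038805 counts on genes, so the depth behind each of the 100 was high. The lowest mean count of any of them was 51954, and counting error alone would give a coefficient of variation (CV) of at most 0.439%. CD replicates 1 and 2 stood apart from the other libraries in the level of these genes. The share of counts, the membership, the median CV and the diet difference are given with and without them. This alternative was chosen after the data were seen. Per-length shares, correlations between genes, CVs of single genes, the main axis of variation and the grouping by it rest on all 8 libraries.

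The 100 genes held 24.2% of all gene counts, averaged over the 8 libraries. In the HFD libraries their share was 23.2%, 21.9%, 24.2% and 23.1% in replicates 1 to 4, and in the CD libraries it was 28.5%, 26.2%, 23.7% and 22.8%. CD replicates 1 and 2 were the highest of all, while CD replicates 3 and 4 lay within the HFD range, so the diets overlapped. The mean share was 23.1% ± 0.972 (SD, n = 4) on the HFD and 25.3% ± 2.56 (SD, n = 4) on the CD. The HFD mean was lower by 2.19 percentage points, less than the SD of the CD libraries and more than that of the HFD libraries. Without CD replicates 1 and 2 the HFD minus CD difference was -0.154 points.

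**Figure D1:**
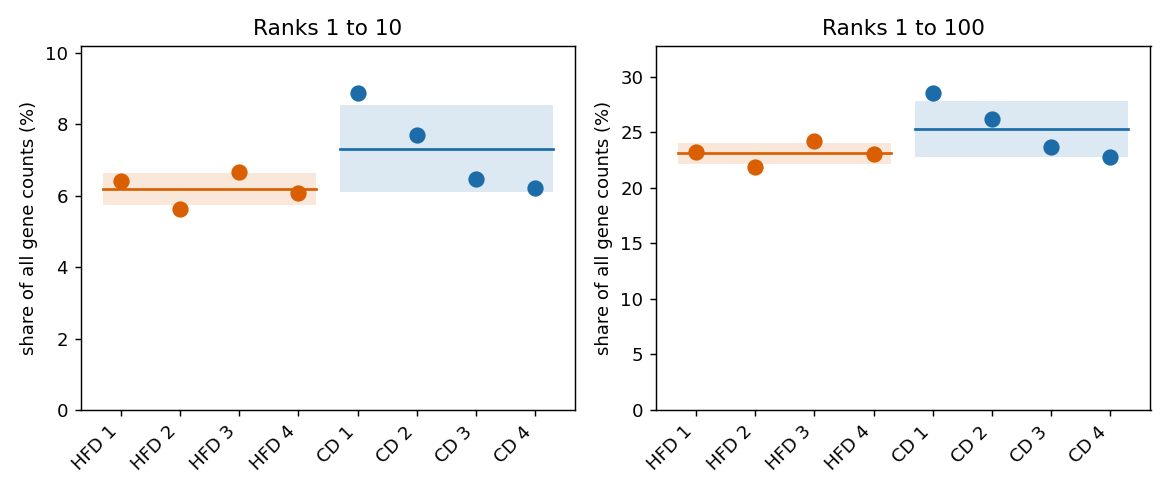
Share of all gene counts (%, axis from 0) held by the 10 (left) and the 100 (right) most abundant genes, 1 point per library, with the mean of each diet as a line and its SD (n = 4) as a band. CD 1 and CD 2 are the highest points in both panels, and CD 3 and CD 4 lie in or near the HFD range.

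The counts were concentrated further within the 100. Rank 1 alone took between 0.882% and 1.50% of a library, ranks 1 to 10 between 5.64% and 8.87%, and ranks 1 to 20 between 9.05% and 13.3%. Reaching 50% of the counts took 545 genes by mean level, 614 in HFD replicate 2 and 415 in CD replicate 1. The mean CPM of rank 1 was 9.86 times that of rank 100. Of the 100 genes, 13 had a mean above 4000 CPM and 60 a mean under 2000 CPM, and their median mean level was 1730 CPM, against 2.79 CPM over all genes tested. The level chose these genes, so these values describe them and carry no test.

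The most abundant was ENSRNOG00000020863 (rank 1, chr2:215154623-215157553 in the rn5 build), with 858 bases of exon in 6 exon blocks, the non-overlapping exon intervals of the annotation. It measured 11028, 8826, 10903 and 8822 CPM on the HFD and 15003, 12850, 10392 and 10157 CPM on the CD, here and below in the order of replicates 1 to 4. CD replicates 1 and 2 were the highest, CD replicates 3 and 4 were in the range of the HFD libraries, and HFD replicates 2 and 4 were the lowest.

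Next in level was ENSRNOG00000014584 (rank 2, chr3:13793731-13838706), which is longer, with 4154 exon bases in 25 blocks. It measured 8449, 8216, 9292 and 9197 CPM on the HFD and 11213, 10262, 9164 and 8974 CPM on the CD. Again only CD replicates 1 and 2 lay above all HFD libraries.

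Ranks 3 and 4 are short genes of 2 exon blocks each. ENSRNOG00000006578 (rank 3, chr7:77172773-77180529, 933 exon bases) measured 9329, 7399, 8964 and 7476 CPM on the HFD and 12711, 10541, 8466 and 8746 CPM on the CD. ENSRNOG00000009326 (rank 4, chr2:212089681-212094888, 858 exon bases) measured 9190, 7182, 9068 and 7179 CPM on the HFD and 12462, 10416, 8446 and 8612 CPM on the CD. Both were highest in CD replicates 1 and 2 and lowest in HFD replicates 2 and 4, the same libraries that lay at the extremes for rank 1. Over the 8 libraries the Pearson correlations among the levels of ranks 1, 3 and 4 lay between 0.995 and 0.997, a description over libraries that share their depth and scaling. Across the 100, 28 genes had HFD replicates 1 and 3 both above HFD replicates 2 and 4.

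ENSRNOG00000008518 (rank 5, chr4:233291209-233307476, 1349 exon bases) followed at a mean of 5762 CPM. It held rank 5 in each of the 8 libraries. Below it the levels lie close together: ranks 6 to 13 had means from 4751 to 4088 CPM, and each of them had libraries above and below its neighbour's mean.

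**Figure D2:**
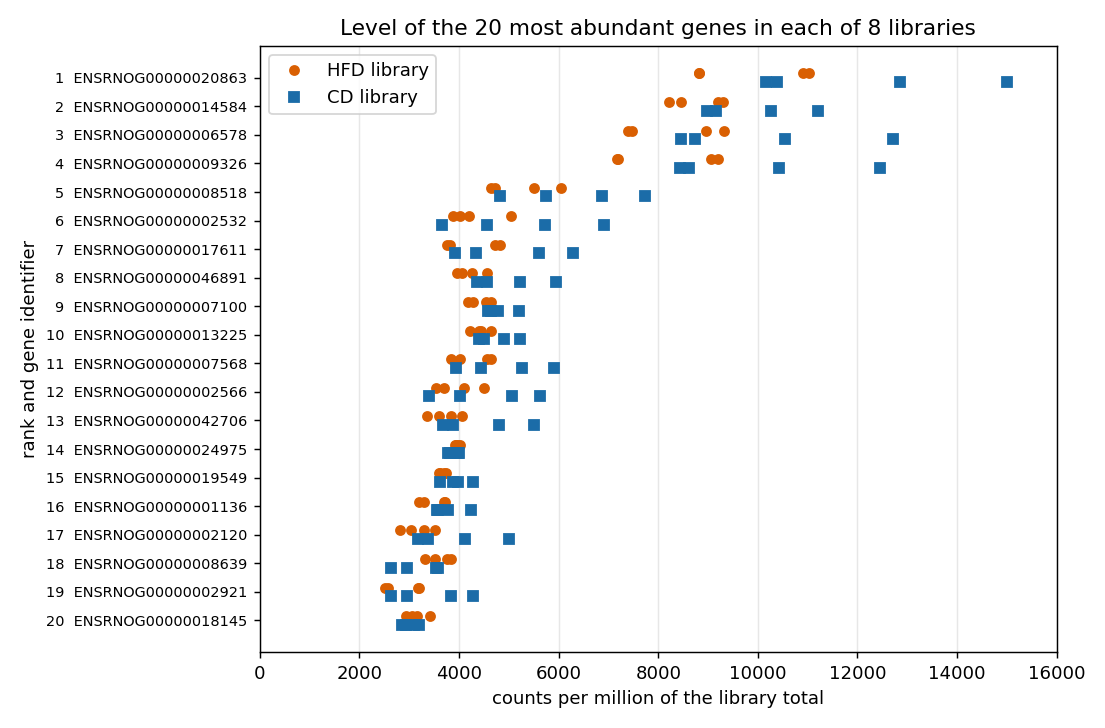
Level (CPM of the library total, linear axis from 0) of ranks 1 to 20 in each library, HFD as circles and CD as squares. Within each library ranks 1 to 4 exceed rank 5, while points of different libraries overlap, and in most rows CD 1 and CD 2 lie to the right of all circles.

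The membership changed little with the choice of libraries and more when levels were divided by gene length. Of the 100, 80 were in the top 100 of every library and 99 in the top 150 of every library, and all 50 genes of ranks 1 to 50 were in each library's top 100. A single library's own top 100 held between 90 (CD replicate 1) and 99 (HFD replicate 3) of them. Ranking on the HFD libraries alone kept 97 and on the CD libraries alone 97, and those 2 lists shared 94 genes. Leaving out CD replicates 1 and 2 kept 96. The lowest place of any was that of ENSRNOG00000004060 (rank 98), which stood at 77 in one library and 161 in another. The limit itself does not separate levels: rank 100, ENSRNOG00000014505, had a mean of 1116 CPM and rank 101, ENSRNOG00000007979, one of 1110 CPM, while the means of the 5 genes on either side of the limit ran from 1146 to 1081 CPM, with ranges over libraries that overlapped.

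A longer transcript gives more fragments, so the levels were also divided by exon length. By transcripts per 1000000 (TPM, computed from these counts and lengths), 65 of the 100 remained in the top 100, and 6 of the 10 highest were among the 10 highest by both measures. Rank 1 was also first per length, at a mean of 21184 TPM. ENSRNOG00000002532 (rank 6, 396 exon bases, the shortest of the 100) came second per length at 19805 TPM, and ENSRNOG00000017611 (rank 7, chr9:80066302-80066908, 409 exon bases) next at 18815 TPM. ENSRNOG00000012271 (rank 64, chr19:9653369-9746683, 7714 exon bases in 49 blocks, the longest) fell to place 586 at 325 TPM. ENSRNOG00000014584, second by counts, was at place 14 per length with 3723 TPM. In all, 28 genes stood higher per length than by counts. Per length the 100 held 26.7% ± 1.11 (SD, n = 4) of the total on the HFD and 29.1% ± 3.01 (SD, n = 4) on the CD.

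Compared with all genes tested, the 100 as a whole were not short genes. Their median exon length was 2181 bases (interquartile range 1454 to 3166), against 1792 bases over all genes tested, and 15% of them were under 1000 bases, against 23.2% of all. They had a median of 10 exon blocks, against 7 of all genes tested. Single-block genes numbered 6 (6%, against 8.74% of all), and the genomic span had a median of 15225 bases, against 14821. Compared with the next 100 ranks, however, the 100 were shorter. Those next ranks had a median of 2488 exon bases, 12 exon blocks and a span of 19458.5 bases. Of them 5% were under 1000 bases and 8% had a single block. In ranks 1 to 20, 6 of 20 genes were under 1000 bases, against 9 of 80 among ranks 21 to 100. Their median block number was 6 against 10, while their median length was close, at 2128.5 bases against 2180.5. Genes are not replicates, and longer genes gain counts, so these are descriptions. The most abundant single-block gene was ENSRNOG00000042706 (rank 13, 2401 exon bases, 4088 CPM).

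The shortest 5 of the 100 were ranks 6, 7, 12, 87 and 95. ENSRNOG00000007771 (rank 87, chr10:63636586-63637600, 564 exon bases) rose to place 16 per length and ENSRNOG00000011082 (rank 95, chr2:113558532-113562107, 565 exon bases) to place 18. The 5 longest were ranks 15, 31, 50, 64 and 73, among them ENSRNOG00000016963 (rank 50, chr9:92039803-92167938, 7235 exon bases in 42 blocks), which was at place 457 per length. ENSRNOG00000025693 (rank 31) and ENSRNOG00000019549 (rank 15) reached 6908 and 6228 exon bases with 5 and 4 blocks.

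The 100 lay on 19 of the 21 chromosomes that carry tested genes. Chromosomes 1 and 10 held 13 each, where 12.9% and 8.11% of tested genes lie. Chromosome 7 held 9 (5.89% of tested genes), chromosome 3 held 3 (7.44%) and chromosomes 11 and 18 none (2.58% and 2.49%). The X chromosome held 2 (4.08% of tested genes), ENSRNOG00000002921 (rank 19) and ENSRNOG00000003786 (rank 53). On the plus strand lay 48.

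Most of the 100 had no other within reach: 18 had one within 1 Mb, 6 within 100 kb and 4 within 20 kb. The closest pair was ENSRNOG00000002532 (rank 6, chr10:3772397-3772883) and ENSRNOG00000002566 (rank 12, chr10:3780384-3781110). Both are on the plus strand, both have 2 exon blocks, with 396 and 534 exon bases, and 7501 bases lie between them. Rank 6 measured 4017, 3886, 4201 and 5039 CPM on the HFD and 6907, 5734, 4570 and 3654 CPM on the CD. Rank 12 measured 3527, 3691, 4103 and 4499 CPM on the HFD and 5620, 5060, 4029 and 3389 CPM on the CD. The order of the CD libraries was the same in both, with CD replicate 1 highest and CD replicate 4 lowest of all 8, and HFD replicate 4 was the highest HFD library in both. Their log2 levels correlated with r = 0.979 over the 8 libraries. Such an r was not particular to near pairs. Ranks 1, 3 and 4, on chromosomes 2 and 7, had values of 0.995 to 0.997.

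The other near pairs did not move together. ENSRNOG00000017518 (rank 96) and ENSRNOG00000017554 (rank 42) lie 9085 bases apart on chromosome 16, on the same strand, and had r = -0.303. Rank 42 was at 2521 CPM in CD replicate 1 and between 1729 and 1898 CPM in the other 7 libraries, while rank 96 stayed between 1085 and 1219 CPM. ENSRNOG00000025726 (rank 40) and ENSRNOG00000008612 (rank 97) lie 55172 bases apart on opposite strands of chromosome 6 and had r = -0.891. Rank 40 was highest in CD replicate 1 (2726 CPM), the library in which rank 97 was lowest (928 CPM).

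Position alone does not tell which of overlapping genes a read came from, and 5 of the 100 had exon bases shared with another listed gene. The partners on the opposite strand of ENSRNOG00000010170 (rank 57), ENSRNOG00000045947 (rank 76), ENSRNOG00000030680 (rank 84) and ENSRNOG00000013100 (rank 91) had mean levels of 274, 237, 135 and 15.8 CPM. Each shared between 84 and 118 bases with its partner. The library kit does not mark the strand, yet the counting took reads of the reverse strand. Whether the libraries kept the strand was not tested, so how far the reads of such partners were separated is not known. ENSRNOG00000007111 (rank 30) shared 42 bases with a gene on its own strand at 0.00201 CPM. Rank 84 also shared 1 base with a gene on its own strand at 0.831 CPM. None of the 4 highest had an overlap.

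The spread between libraries far exceeded counting error. The CV over the 8 libraries had a median of 13.5% in the 100 (interquartile range 6.63% to 17.4%, range 2.22% to 23.2%), where counting error alone would give a median of 0.352%. Ranks 101 to 200 had a median CV of 10.1%, ranks 501 to 1000 one of 11.1% and all genes tested one of 21.4%, of which counting error alone would give 8.75%. The highest library exceeded the lowest by a median factor of 1.47 (range 1.06 to 1.89). The median CV was 6.91% within the HFD libraries and 14.3% within the CD libraries, and over the 6 libraries without CD replicates 1 and 2 it was 5.90%.

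**Figure D3:**
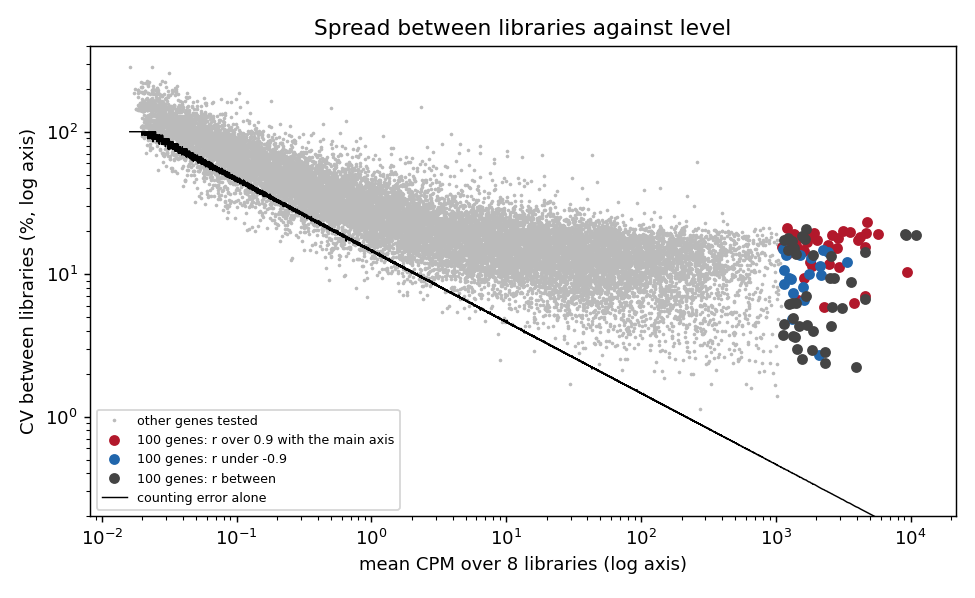
CV between the 8 libraries (%, log axis) against mean CPM (log axis) for every gene tested, with the 100 most abundant in colour by their correlation r with the main axis of variation and a black line for counting error alone. The 100 lie between 2.22% and 23.2%, all far above the line.

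The largest CV belonged to rank 6 (23.2%), described above, followed by ENSRNOG00000017016 (rank 90, 21.1%), ENSRNOG00000003786 (rank 53, 20.6%) and ENSRNOG00000002921 (rank 19, 20.1%). Both X-linked genes were thus among the 4 most variable. At the other end, 17 genes had a CV under 5%. ENSRNOG00000024975 (rank 14, chr7:12211369-12230886, 4058 exon bases in 28 blocks) had the smallest, 2.22%. It measured 3978, 3919, 3933 and 4012 CPM on the HFD and 3993, 3821, 3983 and 3770 CPM on the CD. No library stood out and the diets overlapped throughout. ENSRNOG00000042271 (rank 34, 625 exon bases) had a CV of 2.38% and ENSRNOG00000011809 (rank 61, 5375 exon bases) one of 2.55%.

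Which genes look steady depends on the scaling. The trimmed mean of M values (TMM), which scales each library on the bulk of its genes, gave CD replicate 1 a factor of 0.856 and CD replicate 2 one of 0.944, against 0.996 to 1.09 in the other 6 libraries. With TMM the CV of rank 14 was 9.01%, 11 genes were under 5%, and 2 genes were under 5% by both scalings. The smallest CV was then that of ENSRNOG00000042781 (rank 79, 1.93%), and the median CV rose to 19.3%.

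Much of the spread was shared. A single axis held 86.8% of the variance of the log2 levels of the 100 over the 8 libraries (89.3% in ranks 101 to 200, 43.8% over all genes tested), and a further axis 9.35%. CD replicate 1 lay at one end of the main axis, followed by CD replicate 2, and HFD replicate 2 at the other end. By library totals, CD replicates 1 and 2 were the 2 highest libraries in 61 of the 100 genes and the 2 lowest in 28. With TMM these counts were 71 and 11.

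The genes were then sorted by their correlation with this axis, a grouping made after the values were seen and used only to describe them. In 41 genes the correlation was over 0.9. Their median level in CD replicate 1 was 1.31 times their mean over the libraries, and it was 1.17 times in CD replicate 2, 0.847 times in HFD replicate 2 and 0.886 times in CD replicate 4. Ranks 2, 5, 6, 7 and 12 are among these 41, and so are 11 of ranks 1 to 20.

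In 19 genes the correlation was under -0.9, and only rank 18 of ranks 1 to 20 was among them. ENSRNOG00000008639 (rank 18, chr7:75557273-75570171, 2795 exon bases) measured 3755, 3828, 3308 and 3519 CPM on the HFD and 2625, 2960, 3533 and 3583 CPM on the CD. Here CD replicates 1 and 2 were the lowest, and CD replicates 3 and 4 lay within the HFD range. The median level of the 19 was 0.815 times their mean in CD replicate 1 by library totals and 0.952 times with TMM, so that with TMM they were nearly level across libraries (median CV 5.18%) while the 41 were at 1.54 times. The 19 had a median length of 2780 bases and the 41 one of 1987 bases, with ranges that overlapped widely (565 to 7714 and 396 to 6228 bases). Over the 100 genes the Spearman correlation of length with the position on the axis was -0.15.

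The remaining 40 genes lay between these limits. They include ranks 1, 3 and 4, whose correlations of 0.889, 0.872 and 0.862 were close to the limit of 0.9. In these ranks HFD replicates 2 and 4 were as low as each other. The 40 also include 15 of the 17 genes with a CV under 5%.

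**Figure D4:**
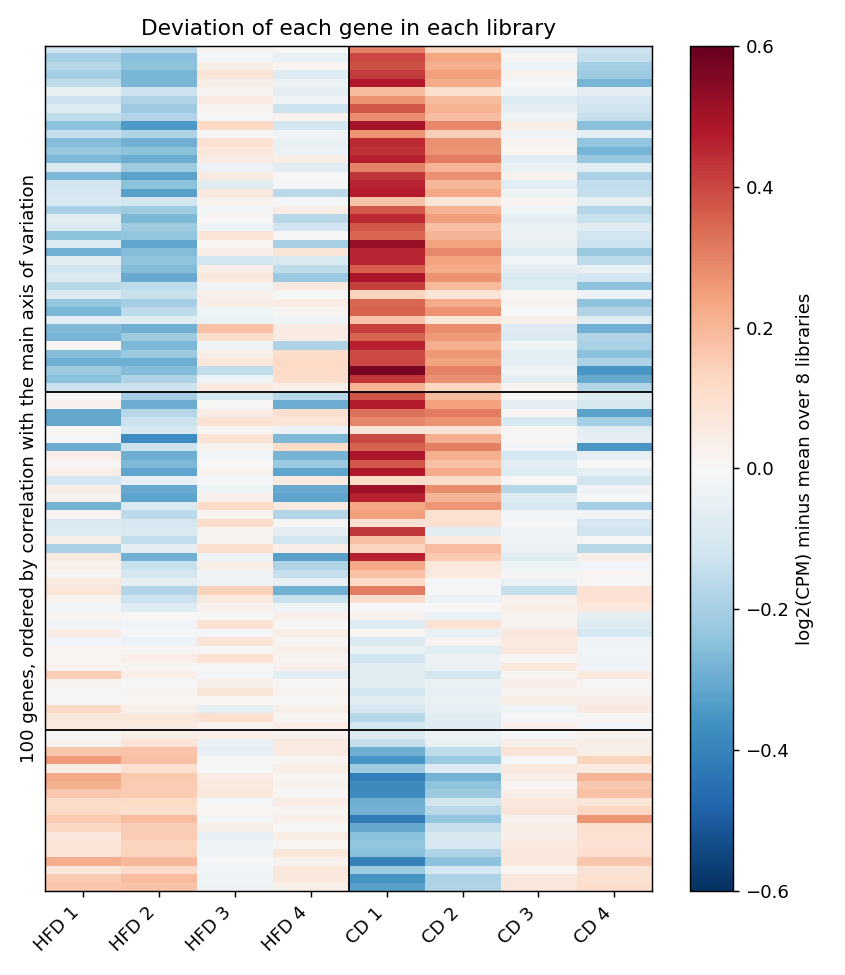
Deviation of the log2 CPM of each of the 100 genes (rows) from its own mean in each of the 8 libraries (columns, HFD left of the vertical line), with rows ordered by correlation with the main axis. The horizontal lines mark off the 41 genes with r over 0.9 (top) and the 19 with r under -0.9 (bottom). The CD 1 and CD 2 columns are red at the top and blue at the bottom, while CD 3 resembles the HFD columns.

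For the diet comparison the HFD was set against the CD in edgeR's quasi-likelihood test across all genes tested, with Benjamini-Hochberg adjustment. No gene of the 100 passed an adjusted p of 0.05, and neither did any other gene (0% of genes tested). The smallest adjusted p among the 100 was 0.829. At an unadjusted p under 0.05 there were 15 of the 100, all lower on the HFD and none higher, where 2.52% of all genes tested were lower and 1.21% higher at that limit. DESeq2 with shrunken log2 fold changes gave 0 of the 100 an adjusted p under 0.05 (0.0309% of genes tested), with a smallest adjusted p of 0.906. It gave 18 an unadjusted p under 0.05, all lower on the HFD, where 2.63% of genes tested were.

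The direction of the estimates was uneven. The log2 fold change (HFD over CD, scaled by TMM) was below 0 in 83 of the 100 and in 51.2% of all genes tested. It ranged from -0.43 to 0.13 with a median of -0.23, against -0.01 over all genes, and its standard errors ran from 0.067 to 0.220. By library totals the HFD mean was the lower in 67 of the 100, against 38% of all genes tested. The genes share libraries and a common axis, so these counts are not 100 separate observations. The median was -0.33 in ranks 1 to 20, of which 19 were below 0, -0.21 in ranks 21 to 100, -0.08 in ranks 101 to 200 and 0.02 in ranks 1001 to 3000.

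These figures moved with CD replicates 1 and 2. Without both, the log2 fold change was below 0 in 39 of the 100 (48.7% of all genes tested), its median was 0.01 and none of the 100 had an unadjusted p under 0.05 (1.95% of all). Without CD replicate 1 alone the median was -0.11, with 80 genes below 0 and none at an unadjusted p under 0.05. That count was also 0 without CD replicate 2, HFD replicate 2 or HFD replicate 4, with 2.12% to 3.60% of all genes tested at that limit in these 4 settings. It was 63 without CD replicate 4, where the share of all genes tested rose too, to 17.5%, and the smallest adjusted p of the 100 was 0.221. It was 9 without HFD replicate 1 (2.33% of all).

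**Figure D5:**
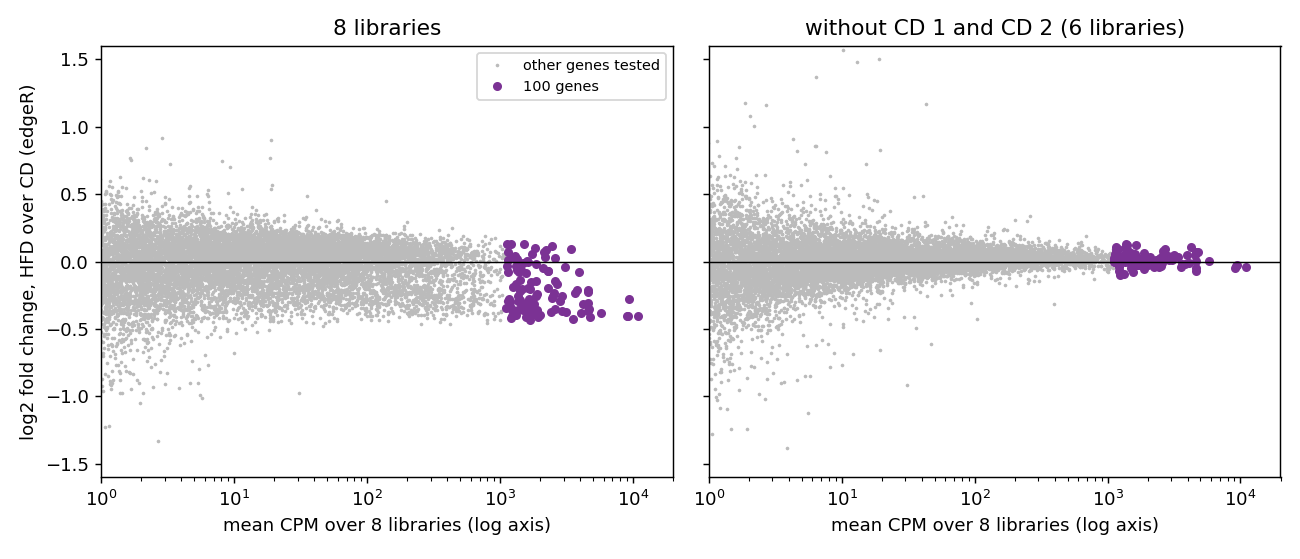
Log2 fold change (HFD over CD, edgeR) against mean CPM (log axis) of every gene tested with a mean of at least 1 CPM, with the 100 most abundant as large points, for all 8 libraries (left) and without CD 1 and CD 2 (right). With 8 libraries 83 of the 100 lie below 0; without those 2 libraries 39 do, and their median is 0.01. Genes beyond the limits of the vertical axis are not drawn.

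No gene of the 100 had all HFD libraries below all CD libraries by library totals (0.797% of genes tested did), and 2 had all HFD libraries above (0.992%). With TMM the counts were 0 and 0 (1.04% and 1.07%). ENSRNOG00000022511 (rank 26, chr2:112320851-112387922) measured 2711, 2711, 2763 and 2611 CPM on the HFD and 2298, 2460, 2569 and 2604 CPM on the CD. The lowest HFD library and the highest CD library were nearly level, and the log2 fold change was 0.03 with a standard error of 0.075 (edgeR adjusted p = 0.941). ENSRNOG00000025420 (rank 44) measured 1889, 1926, 1993 and 1899 CPM on the HFD and 1735, 1831, 1888 and 1847 CPM on the CD. Its log2 fold change was -0.02 with a standard error of 0.082 (edgeR adjusted p = 0.970), the sign differing between the scalings.

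The smallest unadjusted p of the 100, 0.0315 by edgeR, belonged to ENSRNOG00000046891 (rank 8, chr20:33703472-33770509, 3445 exon bases). It measured 4571, 3960, 4254 and 4059 CPM on the HFD and 5941, 5216, 4570 and 4357 CPM on the CD, with a log2 fold change of -0.37 ± 0.15 (SE). The 2 lowest CD libraries lay within the HFD range. The largest estimate was that of the X-linked ENSRNOG00000003786 (rank 53, chrX:104555384-104562260), -0.43 ± 0.19 (SE). It measured 1700, 1345, 1626 and 1342 CPM on the HFD and 2357, 2014, 1472 and 1635 CPM on the CD, so that 2 CD libraries again lay within the HFD range.

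For ranks 1 to 4 the log2 fold changes were -0.41, -0.28, -0.40 and -0.41, with standard errors of 0.182, 0.137, 0.181 and 0.183. The highest estimate among the 100 was 0.13 ± 0.079 (SE), in ENSRNOG00000012271 (rank 64), the longest of the 100. It measured 1781, 1690, 1496 and 1510 CPM on the HFD and 1168, 1280, 1487 and 1639 CPM on the CD, lowest in CD replicates 1 and 2, with CD replicate 4 inside the HFD range. Its edgeR adjusted p was also 0.829.

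The small RNA libraries of the same study, 4 per diet, gave a further readout that the ranking did not use. PIWI-interacting RNAs (piRNAs) are small GC RNAs that guide the silencing of transposons and of some messenger RNAs. Of 1269 piRNA entries listed at 1 genomic place on exons of tested genes, 288 had counts. Of those 1269, 8 lay on exons of the 100, and 3 of these 8 had counts. On exons of the 100 the HFD libraries, replicates 1 to 4, had 5, 5, 14 and 4 counts and the CD libraries 10, 1, 3 and 4, out of 891575 to 1240080 piRNA counts per library. The diets overlapped, and counts this low could not show a difference. Of these counts 82.6% fell on rank 18. The 100 held 0.564% of the exon bases of tested genes and 0.0365% of the piRNA counts on such exons. The latter share rests on 3 entries. These tables count reads of 1 orientation, opposite to the annotated strand, and the count column of CD replicate 4 carries another library number than its file.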

How the data were processed

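Messenger RNA of sorted germ cells was measured in 8 libraries, 4 per diet, and small RNA in 8 more. Diet and replicate number were taken from the sample labels. Unnormalised read counts per gene and per piRNA entry were deposited by the authors. According to the file headers and the study's methods, they aligned mRNA reads to rn5 with STAR 2.3.0 and counted reverse-strand reads with a mapping quality of at least 1 in Ensembl genes with featureCounts 1.4.6, while the TruSeq v2 kit does not mark the strand. All other values were computed here from these counts.

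CPM were taken of library totals, and the 100 genes with the highest mean over the 8 libraries were kept. The members and lists were chosen with earlier results of these data known. The 19446 genes averaging 1 count or more per library were tested for diet in R 4.3.3 with edgeR 4.0.16 (TMM, quasi-likelihood test, Benjamini-Hochberg adjustment over all of them, threshold 0.05), after a check on simulated counts, and again with DESeq2 1.42.0. Standard errors of log2 fold changes were derived from the estimate and its F statistic (estimate over root F). Exon length, blocks and positions came from the count files, whose listed blocks summed to the length in all 26560 genes. Libraries were compared with each other and none repeated another. The labels do not say more of the replicates than a number per diet. The study's text gives its reads per animal and calls the replicates biological. The p-values thus measure the spread between libraries taken to be from separate animals.

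Described by rule were ranks 1 to 20, the genes with the smallest p in each direction, the largest and smallest CV, the 5 ranks on either side of the limit, the longest and shortest, overlapping genes and those whose rank changed most per length, and a selection of these is named. Near pairs, genes whose diets did not overlap and the grouping by the main axis were chosen after their values were seen. Since 0 identifiers were found in the reference tables, the planned tests of promoters, proteins, role lists and marker lists were not run. The miRNA and repeat counts were not used. Alternatives were another normalization, other count filters, a robust fit, DESeq2, the replicate number as a block and each library left out.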

Additional observations from a re-analysis of the deposited data

Results flagged for a closer look

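In 4 of the 200 groups of 4 libraries (100 genes in each of 2 diets), 1 library lay far from the other 3 relative to the range of the group, where chance flags about 1 in 20 groups. ENSRNOG00000017554 (rank 42) was at 2521 CPM in CD replicate 1, above the other CD libraries. ENSRNOG00000017518 (rank 96) was at 1219 CPM in HFD replicate 3, above the other HFD libraries. ENSRNOG00000014883 (rank 27) was at 2675 CPM in HFD replicate 1, above the other HFD libraries. ENSRNOG00000011809 (rank 61) was at 1563 CPM in HFD replicate 1, slightly below the other HFD libraries at 1581 to 1584 CPM.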

How the results depend on the processing

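No gene of the 100 had an adjusted p under 0.05 in any setting run. The count at an unadjusted p under 0.05, 15 in the report, was 7 with a mean count of at least 10 (3.55% of all genes tested then, 3.73% in the report) and 0 to 63 with 1 library left out (2.12% to 17.5% of all). The pairing of replicate numbers gave 9 with a replicate block (1.66% of all), also with no adjusted p under 0.05. Of 4 correlations of deviations between same-numbered libraries, 0 exceeded 0.1. So few correlations cannot decide whether the numbers mark a pairing, and the labels do not say. With 1 library left out, the number of genes below 0 was 80 to 85, the median log2 fold change -0.34 to -0.11, the HFD minus CD share -3.01 to -1.12 points, the genes kept 99 to 100 and the median CV 9.25% to 14.4%. The genes kept numbered 65 per kilobase. The median CV was 6.91% within the HFD and 14.3% within the CD.

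Without CD replicates 1 and 2 together, chosen after the data were seen, the unadjusted count was 0, 39 genes were below 0, the median log2 fold change was 0.00977, the share difference -0.154 points and the median CV 5.90%. The estimates of ranks 5, 6, 14 and 44 then turned to 0.0025, 0.0734, 0.0456 and 0.0609. By library totals those of ranks 14 and 44 were 0.0252 and 0.078. With 1 library left out, rank 44 ran from -0.0645 to 0.0138, above 0 without HFD replicate 2 or CD replicate 1, and rank 26 from -0.00334 to 0.0479, below 0 without HFD replicate 3 or CD replicate 4. The cause was not tested. At this depth counting error was small beside the spread between libraries.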
